A study of Mus musculus with 18 samples.

Results

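The genes described here encode the proteins that move nucleosomes, change or read histone modifications, or methylate DNA, followed through the first days of mouse embryoid body (EB) formation. They were taken as every cDNA clone of the array whose single gene symbol begins with Smarc, Hdac, Jarid, Kdm, Jmjd, Dnmt1, Dnmt3a, Dnmt3b, Cbx, Chd and a number, Ezh, Suz12, Eed, Rbbp, Mbd, Hmgb, Hmgn, Hmga, Mta or Trim28, or is Rif1, with a value in every condition on 1 array or both. This gave 123 clones of 72 gene symbols among 15360 clones, of which 9866 carried a single symbol of 7142 genes. None was lost for missing values, and 80 of the 123 had a value on all 18 arrays. Slide 1 held 52 of the clones (40 genes) and slide 2 held 71 (51 genes). Mtap, Mtarc2, Ezhip and Mbd3l2 (5 clones) also met the rule and were counted but placed in no functional group. The Polycomb and NuRD groups below therefore hold no clone of Ezhip or Mbd3l2.

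IMT11 cells, a mouse ES cell line, were the only cells used, and no engineered allele is named for them. Undifferentiated cells (D0) were kept with serum and LIF, a cytokine of the IL-6 family under which mouse ES cells self-renew, on gelatin without feeders. EBs, aggregates of differentiating ES cells, were raised from hanging drops for 1, 2, 3 or 4 days in serum. Of the 8 EB conditions 4 lacked LIF, named by day as D1-LIF and so on, and the others kept it, named D1+LIF and so on. RNA of each of the 9 conditions, cytoplasmic by the labels and total by the methods, was hybridised to 2 arrays, once labelled with Cy3 and once with Cy5, against a pooled control in the other dye. Each array came from other RNA, but which of the biological sets went with which dye was not given in the sources used here, so that dye and set cannot be told apart and the p-values measure only the spread between these arrays. The labels describe the pool as equal amounts of EBs of Days 1 to 4, whereas the methods describe a pool of all experimental samples.

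Chromatin regulators are grouped by what they do to the nucleosome. SWI/SNF, ISWI and CHD remodellers slide or evict nucleosomes with an ATPase and, in the larger complexes, subunits around it. Deacetylases and demethylases remove histone marks, and Polycomb proteins keep developmental genes silent in ES cells, the PRC2 complex by adding a methyl mark to histone H3 and PRC1 proteins such as Cbx7 by binding it. DNA methyltransferases place and copy the methylation of CpG sites, HP1 proteins and their partner Trim28 hold heterochromatin and retroelements silent, and HMG proteins bend DNA or bind nucleosomes.

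Values are log2 ratios of the sample over the pooled control, as the mean of duplicate spots, after each slide of each array was centred on its own median. The direction of the deposited ratio was not stated and was taken as likely sample over pool from the channel order in the labels. The D0 array in Cy3 stood apart on slide 1. Before centring its median was -2.73, its values had an SD of 2.23 against 0.32 for D0 in Cy5, and 28.2% of its duplicate spots lay more than 1 apart, against 0.273%. The D2-LIF and D1+LIF arrays in Cy5 had SDs of 2.10 and 2.40 on slide 1, with values for 1115 and 4825 clones of 7680, and the D4+LIF array in Cy5 had an SD of 1.41 on slide 2. Over all clones the Cy3 and the Cy5 array of a condition correlated at -0.52 for D0 and between -0.50 and 0.48 for the EB conditions. Of 14 pluripotency markers 8 genes were measured by 10 clones, and 7 of these clones were lower in EBs than in D0 at an unadjusted p under 0.05 (1 was higher), with none past the adjusted threshold. At that level 17.7% of all clones and 22.3% of those with a symbol were lower, and 15.6% and 11.5% higher. Pou5f1, the factor that defines ES cell identity, was at a log2 difference of -2.39 and Nanog at -2.34. Both of these clones were on slide 1, where 34.7% of the clones with a symbol were lower and the D0 array in Cy3 stood apart. The study's own RT-PCR did not show such falls. It reports that both genes could drop slightly on Day 1 and usually recovered on later days. With more serum in the medium their expression was kept or even rose. The array values are thus no evidence that these markers were lost in EBs. Of 27 clones for 12 extraembryonic endoderm markers, 3 were higher and 11 lower in EBs at an unadjusted p under 0.05. None of these passed the adjusted threshold either.

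The first comparison asked which chromatin genes differed between EBs and undifferentiated cells, as the mean of the 8 EB conditions minus D0. Dnmt1, which copies DNA methylation after replication, was the only one of 123 clones past the threshold, and it was higher in EBs. The furthest below D0 were Trim28, Jmjd1c, Chd4, Suz12, Kdm1a and Jarid2, none of which passed. By limma's moderated test with Benjamini-Hochberg adjustment over 15360 clones, 1 of 123 members passed an adjusted p of 0.05, beside 0.189% of all clones (0.026% higher and 0.163% lower in EBs). At an unadjusted p under 0.05, 9 members (7.32%) were higher in EBs, beside 15.6% of all clones and 11.5% of clones with a symbol. At that level 27 (22%) were lower, beside 17.7% of all clones and 22.3% of clones with a symbol. In both dyes 23 members lay above D0 (18.7%, beside 32.8% of all clones and 26.7% of those with a symbol). Below it in both dyes lay 48 (39%, beside 30.9% and 37.3%), and 52 changed side between the dyes. The share below was thus near that of the clones with a symbol. These counts rest on the direction of the ratio. With the Cy3 ratios inverted, 29 members lay above D0 in both dyes (23.6%, beside 17.8% of all clones and 19.6% of those with a symbol). Below it lay 23 (18.7%, beside 18.5% and 16.4%), and 71 lay on opposite sides. At an unadjusted p under 0.05, 8 were then higher (6.5%, beside 4.84% and 6.07%) and 5 lower (4.07%, beside 8.29% and 6.15%). Of the 12 clones furthest from D0 in both dyes, 10 changed sign.

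The median member change was -0.19 in both dyes together, -0.22 on the Cy3 arrays and -0.07 on the Cy5 arrays. Its sign was not settled, since it was 0.35 without centring, 0.11 with the Cy3 ratios inverted, 0.02 with the arrays brought to equal spread and 0.0051 after quantile normalization. All clones had a median of 0.01 and clones with a symbol a median of -0.08. The slides differed, with a median of -0.68 over the members of slide 1, beside -0.39 for the clones with a symbol on that slide, and of -0.09 over the members of slide 2, beside -0.03. Across the 16 EB arrays, each set against D0 in its own dye, the member median ran from -0.31 to 0.03 (SD 0.10) and lay above 0 on 1 array. All differences of a dye share its 1 D0 array. They are not independent, and their SD does not hold the spread of D0. In bulk RNA fewer cells of a type and less RNA per cell cannot be told apart.

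**Figure D1:**
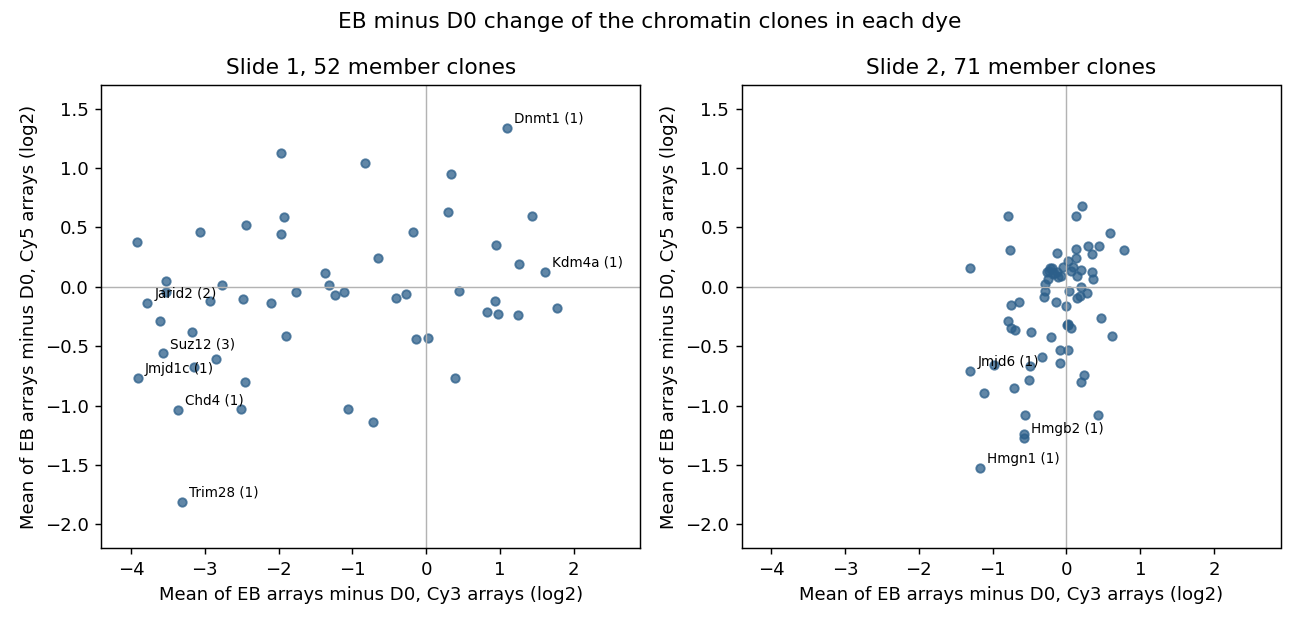
Mean of the EB arrays minus D0 (log2) on the Cy3 arrays (x axis) against the Cy5 arrays (y axis), with 1 point per member clone and the clone number in brackets, for slide 1 (left) and slide 2 (right). Slide 1 clones spread to about -4 along the Cy3 axis, and Dnmt1 stands alone at 1.09 in Cy3 and 1.34 in Cy5.

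Dnmt1 was carried by 1 clone on slide 1 with a value on 17 arrays. Its promoter window is shown because it holds the letters CGCATGC, the core of the NRF1 motif, as 1 of the 6 member genes that do. It is the second of 3 windows listed for the gene, from RefSeq on GRCm38.p6, with the matches on both strands, which overlap, in capitals.
Dnmt1 promoter, chr9:20952930-20953229 (minus strand): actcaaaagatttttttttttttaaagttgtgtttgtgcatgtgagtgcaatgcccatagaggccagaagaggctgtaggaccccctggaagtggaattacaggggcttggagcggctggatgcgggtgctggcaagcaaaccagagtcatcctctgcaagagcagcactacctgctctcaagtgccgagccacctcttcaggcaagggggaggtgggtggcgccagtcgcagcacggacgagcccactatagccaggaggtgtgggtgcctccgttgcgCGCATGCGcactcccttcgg

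In Cy3 the log2 ratio of Dnmt1 lay between -0.28 and 0.17 with a median of -0.02 in the 8 EB arrays, against -1.15 in D0. In Cy5 it lay between -0.18 and 0.28 with a median of -0.03 in 7 EB arrays, against -1.31 in D0. All EB arrays lay above the D0 array of their dye and no values overlapped. The change was 1.23 ± 0.13 (log2, SE), with an adjusted p of 0.043 by limma. The level differed little within EBs, with 0.01 between EBs without LIF and with LIF. The D0 value in Cy5 was the mean of duplicate spots at 0.09 and -2.72, whereas those in Cy3 were at -0.94 and -1.35. The first spots alone gave a change of 0.57 (adjusted p = 0.12), the second spots alone 2.02 (adjusted p = 0.042), and the fit without values whose duplicate spots differed by more than 1 gave 1.09 (adjusted p = 0.051). Over 29 alternative fits the change ran from 0.09, when the Cy3 ratios were inverted, to 2.77, and 13 of them kept it past the threshold.

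The methyltransferases that set new DNA methylation did not pass the threshold. Dnmt3b on slide 1 lay between -0.01 and 2.87 in EBs in Cy3, with a median of 0.68, against 4.04 in D0. In Cy5 it lay between -1.10 and -0.39 in 6 EB arrays, with a median of -0.58, against -1.15 in D0. EBs were thus below D0 in Cy3 and above it in Cy5, and the change of -1.25 ± 0.74 was within the error (adjusted p = 0.27, limma). The 2 clones of Dnmt3a on slide 2 had changes of 0.12 ± 0.15 and -0.05 ± 0.12. Of the Mbd proteins counted with them, Mbd6 was at -1.65 ± 0.82 and Mbd1 at -0.16 ± 0.17, and neither passed the threshold. Together the 6 clones of this group had a median of -0.11.

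Trim28, a corepressor that brings histone methylation and HP1 to retroelements, was carried by 3 clones. The primers the study designed for it stand in its list of array genes without RT-PCR support. They are shown to identify the transcript assayed, with the RefSeq promoter window (GRCm38.p6), in which the capitals mark the E2F letters TTCCCGC on the reverse strand.
Trim28 forward primer: accacaagagccccagcttc
Trim28 reverse primer: ccccaggagtttgctcaaga
Trim28 promoter, chr7:13023902-13024201 (plus strand): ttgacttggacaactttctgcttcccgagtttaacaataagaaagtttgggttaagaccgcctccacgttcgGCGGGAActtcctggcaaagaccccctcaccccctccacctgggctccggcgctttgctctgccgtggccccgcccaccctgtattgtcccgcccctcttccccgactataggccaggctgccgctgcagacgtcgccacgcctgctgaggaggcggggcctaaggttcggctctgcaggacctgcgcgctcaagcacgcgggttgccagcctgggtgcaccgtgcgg

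Clone 1 of Trim28 lay between -1.37 and 0.66 in EBs in Cy3, with a median of -0.06, against 3.12 in D0. In Cy5 it lay between -3.73 and -1.22, with a median of -2.10, against -0.41 in D0. Each of the 16 EB arrays lay below the single D0 array of its dye. The change of -2.56 ± 0.55 had an adjusted p of 0.088, and the duplicate spots of the D1-LIF array in Cy5 differed by 2.72. Clone 2 lay between -0.20 and 0.45 in EBs in Cy3, against 3.32 in D0, and between -1.09 and 0.16 in EBs in Cy5, against -0.16 in D0, so that the groups overlapped in Cy5. Its change was -1.79 ± 0.51 (adjusted p = 0.094, limma). Clone 3, on slide 2, was at -0.08 ± 0.39. Without the D0 array in Cy3 the change of clone 1 was -1.81 (adjusted p = 0.77), and with the Cy3 ratios inverted it was 0.75.

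Of the HP1 proteins, which bind methylated histone H3, Cbx3 was at -1.68 ± 0.62, Cbx5 at -0.55 ± 0.21 for 1 clone and 0.30 ± 0.43 for the other, and Cbx1 at -0.16 ± 0.17. With Trim28 they had a median of -0.55 over 7 clones. Of these, 6 lay below D0 in both dyes (85.7%, beside 37.3% of all clones with a symbol). At an unadjusted p under 0.05, 4 were lower (57.1%, beside 22.3%), all on slide 1 except 1 clone of Cbx5. On slide 1, 34.7% of the clones with a symbol were lower at that level. The group median was 0.20 with the Cy3 ratios inverted and -0.08 at equal spread. In both dyes 1 of the 7 clones, which cover 4 genes, lay below D0 with the Cy3 ratios inverted (14.3%, beside 16.4%). At equal spread 2 did (28.6%, beside 23.5%).

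**Figure D2:**
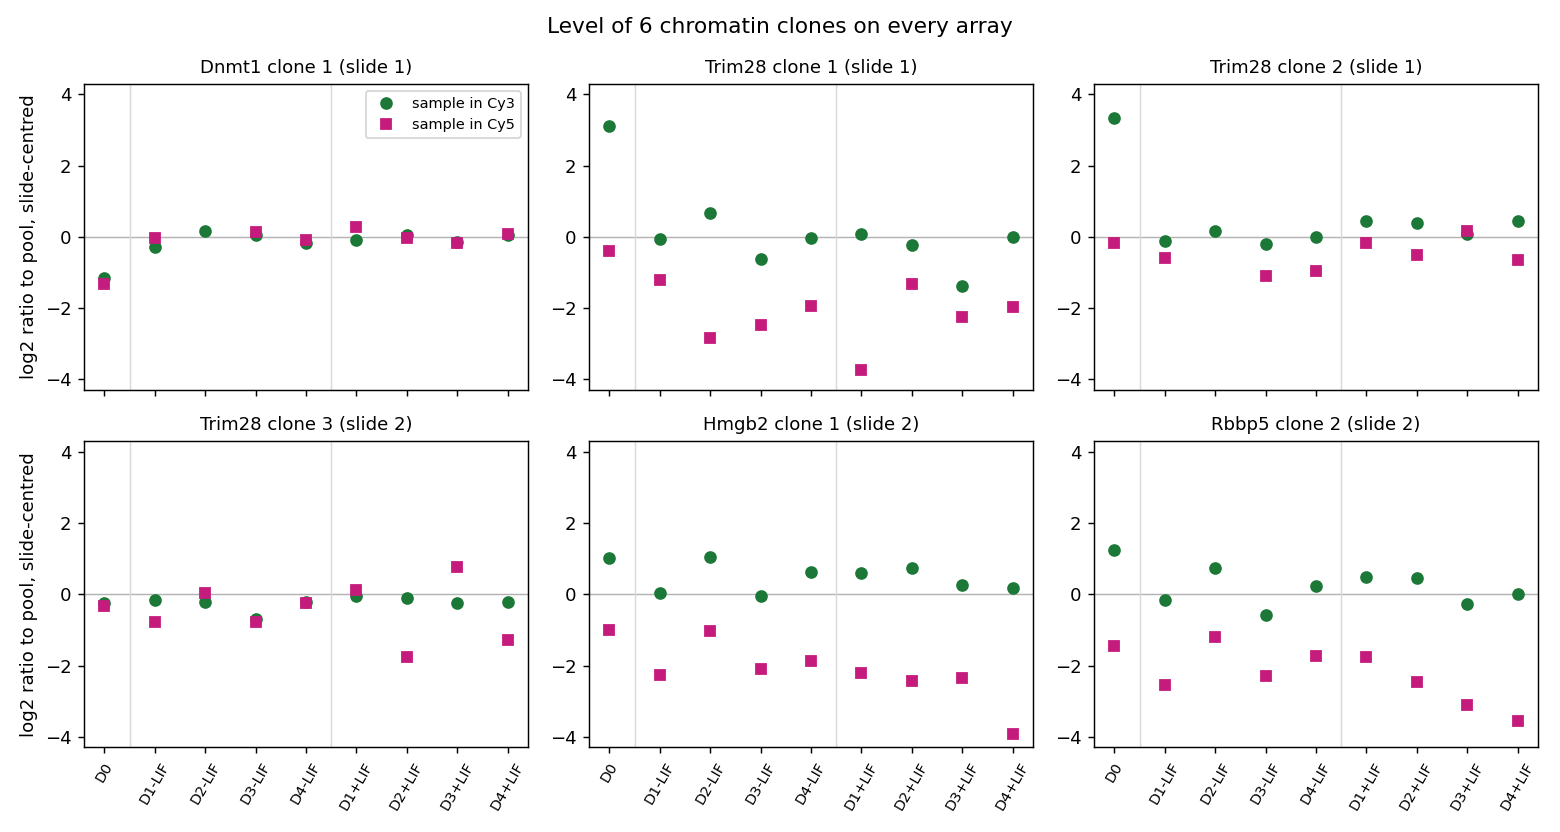
Log2 ratio to the pool (y axis, slide-centred) of 6 clones in each condition (x axis), with 1 point per array, circles for samples in Cy3 and squares for samples in Cy5. Dnmt1 is low only in D0, at -1.15 and -1.31, while the 2 slide 1 clones of Trim28 are high only on the D0 array in Cy3, at 3.12 and 3.32.

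The Polycomb group had a median of -0.55 over 12 clones (0.05 with the Cy3 ratios inverted, -0.13 at equal spread). Of these, 8 lay below D0 in both dyes (66.7%, beside 37.3% of all clones with a symbol). At an unadjusted p under 0.05, 4 were lower (33.3%, beside 22.3%) and none higher. These 4 were all on slide 1, where 34.7% of the clones with a symbol were lower. With the Cy3 ratios inverted 1 of the 12 clones, which cover 6 genes, lay below D0 in both dyes (8.33%, beside 16.4%). At equal spread 6 did (50%, beside 23.5%). Clone 3 of Suz12, an essential subunit of the H3K27 methyltransferase PRC2, lay between -0.02 and 1.36 in EBs in Cy3, against 3.91 in D0. In Cy5 it lay between -1.50 and -0.30 in 6 EB arrays, against -0.32 in D0. The groups were apart in Cy3 and overlapped in Cy5, and the change was -2.04 ± 0.63. The other 2 Suz12 clones, also on slide 1, were at -0.29 ± 0.23 and -0.19 ± 0.51. Jarid2, which helps to recruit PRC2, was at -1.16 ± 0.38, -1.96 ± 0.73 and -0.31 ± 0.30, the last on slide 2. Clone 2 of Jarid2 lay between -0.24 and 0.54 in EBs in Cy3, against 3.84 in D0, and between -1.21 and 2.20 in EBs in Cy5, against -0.40 in D0. Eed, which binds the methylated histone tail for PRC2, was at -1.93 ± 0.56 on slide 1 and -0.09 ± 0.59 on slide 2. The 2 catalytic subunits were both on slide 2, Ezh2 at -0.78 ± 0.35 and Ezh1 at 0.23 ± 0.17. Cbx7, a chromodomain protein of PRC1, had 1 clone at -0.93 ± 0.54 and the other at 0.45 ± 0.45. None of these passed the adjusted threshold.

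Chd4, the remodelling ATPase of the NuRD complex, had a first clone at -0.44 to 0.55 in EBs in Cy3, with a median of 0.13, against 3.47 in D0. In Cy5 it lay between -1.84 and -0.12 in EBs, with a median of -1.04, against 0.04 in D0. Every EB array with a value lay below the single D0 array of its dye, and the change was -2.19 ± 0.57 (adjusted p = 0.094, limma). The remaining Chd4 clones were at -0.16 ± 0.27 and, on slide 2, at -0.36 ± 0.22. Other CHD proteins differed between slides as well, with Chd8 at -1.54 ± 0.51 on slide 1 and -0.13 ± 0.11 on slide 2, and Chd9 at -1.39 ± 0.54 and 0.32 ± 0.13. Chd7, a remodeller of enhancers, stood at 0.67 ± 0.90, a value that held a single array at 5.27 (D1+LIF in Cy5) beside a median of 0.07 in that dye. Chd1, which binds the H3K4 methyl mark of active genes, was at 0.01 ± 0.15 and -0.03 ± 0.15.

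The partners of Chd4 in NuRD and the histone-binding WD40 proteins had a median of -0.50 over 8 clones (0.16 with the Cy3 ratios inverted, -0.08 at equal spread). Of these clones, which cover 5 genes, 6 lay below D0 in both dyes (75%, beside 37.3% of all clones with a symbol). With the Cy3 ratios inverted 1 did (12.5%, beside 16.4%), and at equal spread 3 did (37.5%, beside 23.5%). Mbd3, the scaffold of NuRD, was at -1.15 ± 0.36 and Mta2 at -1.29 ± 0.59 on slide 1. The 2 clones of Rbbp4, a histone chaperone subunit shared by NuRD and PRC2, were at -0.53 ± 0.21 and -0.39 ± 0.29, and those of its paralog Rbbp7 at -0.46 ± 0.26 and -0.82 ± 0.29, all on slide 2. Clone 1 of Rbbp4 lay between -0.32 and 0.38 in EBs in Cy3, against 0.70 in D0, and between -2.17 and -0.97 in EBs in Cy5, against -1.33 in D0. The groups were apart in Cy3 only. Mta3 had 1 clone on each side of D0, at -0.25 ± 0.21 and 0.52 ± 0.17. The deacetylases, which NuRD and other corepressors carry, had 7 clones, all on slide 2 and covering Hdac1, Hdac2, Hdac3, Hdac10 and Hdac11. Their median was -0.01, with 0.04 in Cy3 and -0.26 in Cy5. In the dyes 6 of the 7 lay on opposite sides of D0 (85.7%, beside 36% of all clones with a symbol). This count rests on the direction of the ratio. With the Cy3 ratios inverted 1 lay on opposite sides (14.3%, beside 64%) and 5 lay below D0 in both dyes (71.4%, beside 16.4%). At equal spread 4 lay on opposite sides (57.1%, beside 54%) and 3 below (42.9%, beside 23.5%). With the ratios as taken here, the 7 clones ran from -0.58 for Hdac2 clone 2 to 0.10 for Hdac2 clone 1. Hdac2 clone 2 was at -0.96 in D2+LIF and -0.88 in D4+LIF. None of the 7 had an unadjusted p under 0.05 for EB minus D0.

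The SWI/SNF subunits had a median of 0.10 over 9 clones, but of -0.49 on the Cy3 arrays and 0.01 on the Cy5 arrays. Smarca4, the catalytic subunit that ES cells depend on, was at 0.12 ± 1.27 on slide 1, where the D1+LIF array in Cy5 alone read 7.10, and at 0.10 ± 0.13 on slide 2. Its alternative Smarca2 was at 0.36 ± 0.41. Smarcc1, the core scaffold, had clones at -0.63 ± 0.28 and 0.18 ± 0.32. Smarcb1, another core subunit, was at -0.43 ± 0.20 and Smarce1, a DNA-binding subunit, at -1.79 ± 0.74. Smarca5, the ISWI ATPase, had 3 clones at -0.98 ± 0.56, -0.82 ± 0.46 and -0.54 ± 0.40, all below D0 and each within 2 standard errors of 0. Smarcad1, a remodeller of heterochromatin, had clones at -0.69 ± 0.48 and 0.72 ± 0.23.

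The demethylases and other JmjC proteins were the largest group, with 27 clones of 15 genes and a median of 0.05. At an unadjusted p under 0.05 there were 3 higher and 5 lower (11.1% and 18.5%, beside 11.5% and 22.3% of all clones with a symbol). Jmjd1c, an H3K9 demethylase related to Kdm3a, lay between -0.07 and 1.37 in EBs in Cy3, against 4.19 in D0, and between -2.25 and -0.42 in EBs in Cy5, against -0.51 in D0. The change was -2.29 ± 0.66. Kdm1a, the H3K4 demethylase that silences ES cell enhancers, lay between -0.21 and 0.54 in EBs in Cy3, against 3.71 in D0, and between -1.69 and 0.02 in EBs in Cy5, against -0.42 in D0. Its change was -1.99 ± 0.65. Both overlapped with D0 in Cy5 and were apart from it in Cy3. Kdm4a, an H3K9 and H3K36 demethylase, went the other way, with EBs between -0.33 and 0.28 in Cy3, against -1.64 in D0, and between -0.18 and 0.43 in Cy5, against 0.02 in D0, a change of 0.93 ± 0.30. Kdm7a was at 0.62 ± 0.19 on slide 1 and at 0.08 ± 0.20 and 0.10 ± 0.22 on slide 2. Kdm5a, which removes H3K4 methylation, had 4 clones between -0.60 and 0.50, and Kdm6a, the H3K27 demethylase that opposes Polycomb, had 3 between -0.76 and 0.16. On slide 2, Jmjd6 was at -1.01 ± 0.29 and -0.03 ± 0.13 in its 2 clones and Kdm3b at -0.65 ± 0.27.

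Of the HMG proteins, Hmgb2, a DNA-bending protein of dividing cells, is shown with its RefSeq promoter window (GRCm38.p6), with its 4 matches to CCAAT, on either strand, in capitals.
Hmgb2 promoter, chr8:57511593-57511892 (plus strand): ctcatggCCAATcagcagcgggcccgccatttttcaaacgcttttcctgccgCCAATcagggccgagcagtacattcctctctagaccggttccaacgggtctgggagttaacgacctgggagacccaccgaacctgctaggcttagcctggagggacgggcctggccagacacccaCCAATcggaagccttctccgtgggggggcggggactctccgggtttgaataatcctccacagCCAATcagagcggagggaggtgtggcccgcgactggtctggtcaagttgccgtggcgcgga
Hmgb2 lay between -0.04 and 1.04 in EBs in Cy3, with a median of 0.44, against 1.00 in D0. In Cy5 it lay between -3.93 and -1.04, with a median of -2.23, against -0.999 in D0. All EB arrays in Cy5 lay below D0, while in Cy3 1 array reached above it, and the change was -0.93 ± 0.33 (adjusted p = 0.10, limma). Hmgn1, a nucleosome-binding protein, was at -1.35 ± 0.50 and Hmgb3 at -1.72 ± 0.58, whereas Hmgn5 was at 0.54 ± 0.21. Hmgb1 gave 3 different values, 0.84 ± 0.37, -1.78 ± 0.93 and -0.33 ± 0.42. The 4 clones of Hmga2, which is abundant in embryonic cells, ran from -0.20 to 0.22. Over the 12 clones the median was -0.26. At an unadjusted p under 0.05, 1 was higher and 3 lower (8.33% and 25%, beside 11.5% and 22.3% of all clones with a symbol).

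Among the members outside these groups, Rbbp5, a core subunit of the H3K4 methyltransferases, had clones at -0.92 ± 0.35, -1.01 ± 0.29 and -0.07 ± 0.17. Clone 2 of Rbbp5 lay between -0.59 and 0.75 in EBs in Cy3, against 1.23 in D0, and between -3.55 and -1.21 in EBs in Cy5, against -1.44 in D0. Rbbp6, a ubiquitin ligase that binds the retinoblastoma protein, ran from -0.45 to 1.04 over 4 clones, the highest on slide 1. Rif1, a telomere and replication timing factor that is abundant in ES cells, had 4 clones, 1 on slide 1 at -0.17 ± 0.44 and 3 on slide 2 at -0.15 ± 0.23, -0.57 ± 0.35 and -0.13 ± 0.20. Clone 3 of Rif1 lay between 0.17 and 0.45 in EBs in Cy3, against 1.62 in D0, and between -1.98 and -0.53 in EBs in Cy5, against -1.55 in D0, apart in Cy3 and overlapping in Cy5. Mtarc2, caught by its letters only and a mitochondrial enzyme by function, was at -1.04 ± 0.34.

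**Figure D3:**
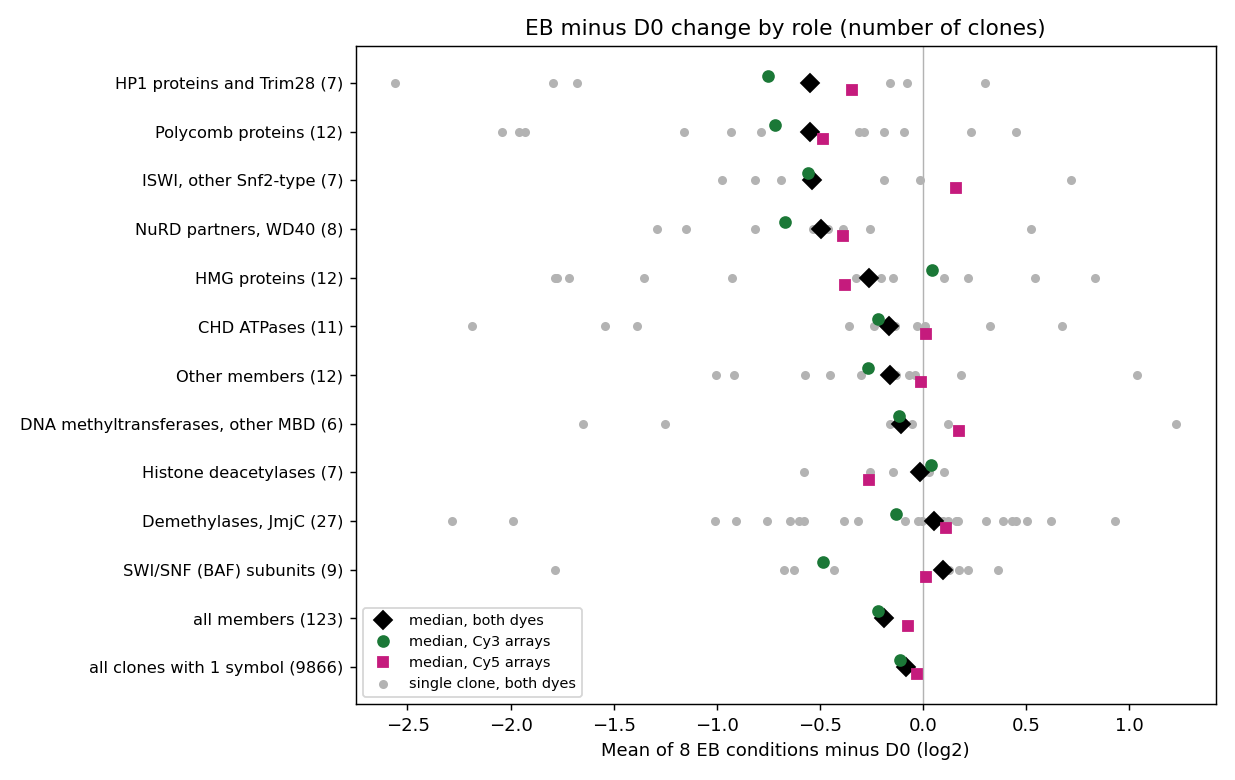
EB minus D0 change (log2, x axis) by functional group (y axis, number of clones in brackets), with grey points for single clones, diamonds for the median in both dyes and circles and squares for the medians in Cy3 and Cy5. Group medians run from -0.55 for HP1 proteins with Trim28 to 0.10 for SWI/SNF subunits, beside -0.08 for all clones with 1 symbol, and the dyes differ for several groups. With the Cy3 ratios inverted the HP1 median is 0.20 and the SWI/SNF median 0.24.

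All 12 clones that lay furthest above or below D0 in both dyes were on slide 1. The member median on that slide was 1.55 on the D0 array in Cy3, beside 0.79 for all clones with a symbol there, and -0.16 on the D0 array in Cy5. Without the D0 array in Cy3 no member passed, the median over all members was -0.06, and the 6 lowest clones lay between -1.81 (Trim28) and -0.14 (Jarid2). Without the D0 array in Cy5, 35 members passed, beside 36.1% of all clones, and the lone D0 array was then assumed to vary like the other conditions.

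**Figure D4:**
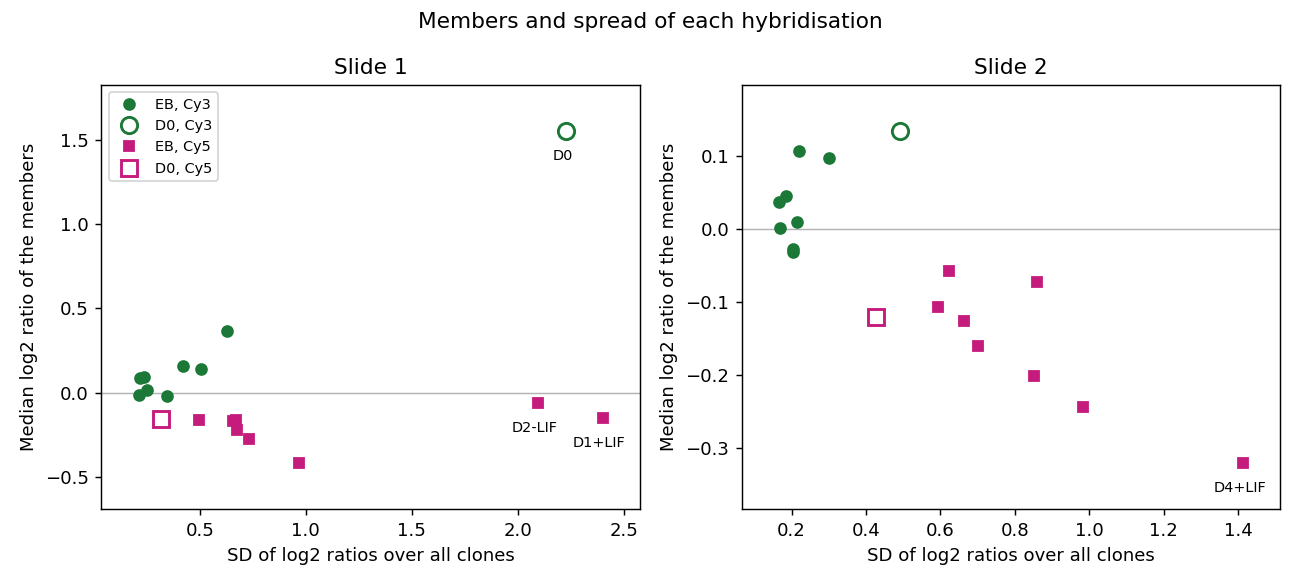
Median log2 ratio of the member clones (y axis) against the SD of all log2 ratios (x axis) for each hybridisation, with open symbols for D0 and filled symbols for EBs, on slide 1 (left) and slide 2 (right). The D0 array in Cy3 stands alone on slide 1 at a median of 1.55, and on slide 2 the widest array, D4+LIF in Cy5, has the lowest median, -0.32.

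Each EB condition was then set against D0 on its own. No condition had a member past the adjusted threshold, and none had any of the 15360 clones past it (0% in each). At an unadjusted p under 0.05 the members lower than D0 numbered 19 on Day 1 without LIF (beside 13.5% of all clones), 2 on Day 2 (3.14%), 17 on Day 3 (12%) and 11 on Day 4 (7.17%). With LIF they numbered 10 on Day 1 (10.7%), 15 on Day 2 (11%), 16 on Day 3 (11.2%) and 29 on Day 4 (15.3%). Those higher numbered 4 on Day 1 without LIF (8.37%), 4 on Day 2 (4.51%), 3 on Day 3 (6.74%) and 3 on Day 4 (4.64%), and with LIF 7 on Day 1 (9.88%), 4 on Day 2 (7.01%), 7 on Day 3 (10.1%) and 9 on Day 4 (11.3%). By share of 123, the lower members without LIF were 15.4%, 1.63%, 13.8% and 8.94% on Days 1 to 4. The clones with a symbol were at 16.6%, 3.61%, 14.5% and 9.11%. With LIF the lower members were 8.13%, 12.2%, 13% and 23.6%, beside 13.3%, 13.9%, 13.5% and 19%. The higher members were 3.25%, 3.25%, 2.44% and 2.44% without LIF, beside 6.02%, 3.79%, 4.9% and 3.03%. With LIF these were 5.69%, 3.25%, 5.69% and 7.32%, beside 7.63%, 5.02%, 7.65% and 9.01%. The median member change ran from -0.03 in D2-LIF to -0.34 in D4+LIF. On slide 1 the D2-LIF array in Cy5 had values for 9 of 52 members, so most of them rested on the Cy3 array there. The D1+LIF array in Cy5 had values for 37. The counts of these conditions are thus not directly comparable with the rest. The 8 comparisons share the D0 arrays.

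D4+LIF was looked at further on slide 2, where the D0 arrays had SDs of 0.49 in Cy3 and 0.43 in Cy5, in a fit added after the data had been seen. In that fit 15 of 71 members passed an adjusted p of 0.05 (21.1%), 12 of them lower than D0 and 3 higher, beside 17.1% of the 7680 clones (8.79% lower, 8.29% higher). Hmgb2 read 0.17 in Cy3 and -3.93 in Cy5 in D4+LIF, against 1.00 and -0.999 in D0, a change of -1.88 ± 0.42 (adjusted p = 0.025, limma). Hmgn1 read -0.24 and -4.45 in D4+LIF, against 1.05 and -1.03 in D0, and Rbbp5 clone 2 read 0.01 and -3.55, against 1.23 and -1.44. The members lower than D0 in this fit also held clones of Jmjd6 (-1.60), Ezh2 (-1.54), Kdm3a (-1.46), Rbbp7 (-1.31), Kdm3b (-1.25), Cbx5 (-0.87), Rbbp6 (-0.85), Smarcb1 (-0.84) and Rbbp4 (-0.84). Those higher were Hmgn5 (0.88), Jmjd4 (0.74) and the other clone of Kdm3a (0.74). Jmjd4 read -0.05 and 1.22 in D4+LIF, against -0.40 and 0.08 in D0. On the D4+LIF array in Cy5 the 3 higher clones read 0.87, 1.08 and 1.22, all within its SD of 1.41, and the 12 lower ones read between -4.45 and -1.44. That array had the widest spread on the slide, with 12 of its 71 member pairs of duplicate spots more than 1 apart. After the arrays were brought to equal spread none of the 7680 clones passed.

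LIF within EBs was then examined as EBs without LIF minus EBs with LIF, averaged over Days 1 to 4. No member and none of the 15360 clones (0%) passed the adjusted threshold. At an unadjusted p under 0.05, 2 members were higher without LIF (1.63%, beside 1.46% of all clones and 1.76% of those with a symbol). That share was near both backgrounds, and none were lower (beside 1.97% of all clones). They were clone 1 of Dnmt3a, a DNA methyltransferase for new sites, and clone 2 of Kdm2b, which recruits PRC1 to CpG islands. The other clone of each gene lay on the other side of 0, Dnmt3a clone 2 at -0.03 ± 0.08 and Kdm2b clone 1 at -0.66 ± 0.61. The median member difference was 0.03, beside -0.02 for all clones (-0.03 with the Cy3 ratios inverted, -0.07 at equal spread), and per day, dye by dye, it ran from -0.11 to 0.23 (SD 0.11) and lay above 0 in 5 of 8.

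Clone 1 of Dnmt3a read 0.21, 0.56, -0.04 and 0.16 in Cy3 on Days 1 to 4 without LIF, against 0.04, 0.02, -0.02 and 0.07 with LIF. In Cy5 it read -0.20, -0.16, -0.21 and -0.21 without LIF, against -0.20, -0.92, -0.67 and -0.59 with LIF. The values without LIF were the higher on Days 2 and 4 in both dyes, on Day 1 in Cy3 and on Day 3 in Cy5. The difference was 0.30 ± 0.10 (adjusted p = 0.87, limma). In Cy3 clone 2 of Kdm2b read 0.15, 0.39, 0.07 and -0.07 without LIF, against -0.02, 0.01, 0.11 and 0.07 with LIF. In Cy5 it read -0.34, -0.06, -0.30 and -0.43 without LIF, against -0.72, -1.29, -0.42 and -1.42 with LIF, and the difference over both dyes was 0.39 ± 0.15 (adjusted p = 0.87, limma). It was higher without LIF on all 4 days in Cy5, but only on Days 1 and 2 in Cy3.

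The differences furthest from 0 on the same side in both dyes were less even. Dnmt3b was at 0.73, for which its Cy3 values were 0.76, 2.87, 0.35 and 1.56 on Days 1 to 4 without LIF, against 0.49, 0.60, -0.01 and 1.16 with LIF. It was the higher without LIF on each of the 4 days in Cy3. In Cy5 it had no value in D2-LIF or D1+LIF, so that Days 1 and 2 could be compared in Cy3 only. With the Cy3 ratios inverted its difference was -0.69. Hmgn1 was at 0.67, but at -0.17 at equal spread, and Jarid2 clone 2 at 0.47. At the other end, Kdm6a clone 1 was at -0.80, with 5.65 on the D1+LIF array in Cy5 and no other value above 0.67 in EBs. Suz12 clone 2 was at -0.56, with -2.10 and -2.58 in D1-LIF and D2-LIF in Cy5 and values of -0.16 and -0.02 on Days 3 and 4, and its duplicate spots in D1-LIF differed by 4.79. Trim28 clone 2 was at -0.48. By functional group the medians ran from -0.12 for SWI/SNF subunits to 0.26 for the NuRD partners and WD40 proteins (-0.14 at equal spread), with none of the groups holding more than 1 clone at an unadjusted p under 0.05.

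Day by day the adjusted threshold was again passed by none (0% each day). At an unadjusted p under 0.05, 8 members were lower without LIF on Day 1 (beside 2.21% of all clones) and none higher (0.378%). All 8 were on slide 1, where the D1+LIF array in Cy5 had its SD of 2.40, and Kdm5b read 9.36 on it, against -1.13 in D1-LIF. On Day 2, 5 were higher (2.88%), namely clones of Dnmt3a, Kdm2b, Rbbp7, Rbbp4 and Jmjd6, and none lower (1.07%). On Day 3 none were higher (0.111%) and Mta3 and Hdac2 were lower (0.488%). On Day 4, 7 were higher (2.32%) and 5 were lower (5.27%). Among the higher were Hmgb2 at 1.25 ± 0.45, Rbbp5 clone 2 at 1.01 ± 0.39 and both clones of Rbbp4 at 0.72 ± 0.27 and 0.98 ± 0.39. The Day 4 comparison rests on the same wide D4+LIF array in Cy5.

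The time course within EBs was taken as Days 3 and 4 minus Days 1 and 2, which uses neither D0 array. No member and no clone of the 15360 passed (0%) without LIF, with LIF or for the difference between them. Without LIF, 2 members were higher on Days 3 and 4 at an unadjusted p under 0.05 (beside 0.872% of all clones) and none lower (0.456%), namely Suz12 clone 2 at 1.15 ± 0.48 and Kdm7a clone 1 at 0.50 ± 0.20. With LIF none were higher (0.612%) and 1 was lower (0.977%), Rbbp5 clone 2 at -0.91 ± 0.27. Clone 1 of Rbbp5 was at 0.06 ± 0.37 and clone 3 at 0.06 ± 0.16. In Cy5 Rbbp5 clone 2 read -1.75, -2.46, -3.10 and -3.55 on Days 1 to 4 with LIF, and in Cy3 0.50, 0.44, -0.27 and 0.01, so that each value of Days 3 and 4 lay below both values of Days 1 and 2 in its dye. For the difference between the courses only Mta3 clone 2, a NuRD subunit, had an unadjusted p under 0.05 (-0.53 ± 0.23), on the lower side (0.508%), with none on the upper (0.846%). The member medians were -0.05 without LIF and -0.01 with LIF.

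A single test over all 9 conditions called no member and none of the 15360 clones (0%). With an unadjusted p under 0.05 there were 6 members, 4.88% beside 4.18% of all clones. These were Dnmt1, Rbbp5 clone 2, Jmjd6 clone 1, Rbbp4 clone 1, Hmgb2 and Trim28 clone 1, with p from 6.1e-04 for Dnmt1 (adjusted p = 0.78) to 0.038 for Trim28. In the other groups the smallest p was 0.14 for Chd4 clone 1, 0.14 for Mtarc2, 0.16 for Cbx7 clone 1, 0.23 for Smarcad1 clone 2, 0.24 for Smarcc1 clone 1 and 0.27 for Hdac2 clone 1.

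The study's selection combined a fold limit with signal above blank spots and significance by SAM, a permutation-based array test, and set conditions against the pool and against each other. Its fold limit alone was taken here, as at least 2-fold from the pool in all repeats. Counted over both spots of both arrays, 1 member met this in any condition, Trim28 clone 1 in D3+LIF, below the pool. Its spots read -1.35 and -1.39 in Cy3 and -1.91 and -2.57 in Cy5. Of all clones, 0.56% were below the pool in this way in some condition and 0.273% above it. With the Cy3 ratios inverted 7 members met it, all below the pool, beside 4.14% of all clones.

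Clones of the same gene often disagreed. Of 34 genes with at least 2 clones, 17 had all clones on one side of 0 for EB minus D0. Of 13 genes with at least 3 clones, 8 did (Chd4, Jarid2, Kdm7a, Rbbp5, Rif1, Smarca5, Suz12 and Trim28). Over the arrays the paired clones of Rbbp4 correlated at 0.95 and those of Rbbp7 at 0.95 (18 arrays each, all on slide 2, as a description). Those of Kdm3a ran opposite at -0.87, both on slide 2, with changes of -0.91 ± 0.36 and 0.45 ± 0.15, and those of Smarcad1 at -0.89 on slide 1. The clones may carry different stretches of a transcript, and their inserts were not analysed here.

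**Figure D5:**
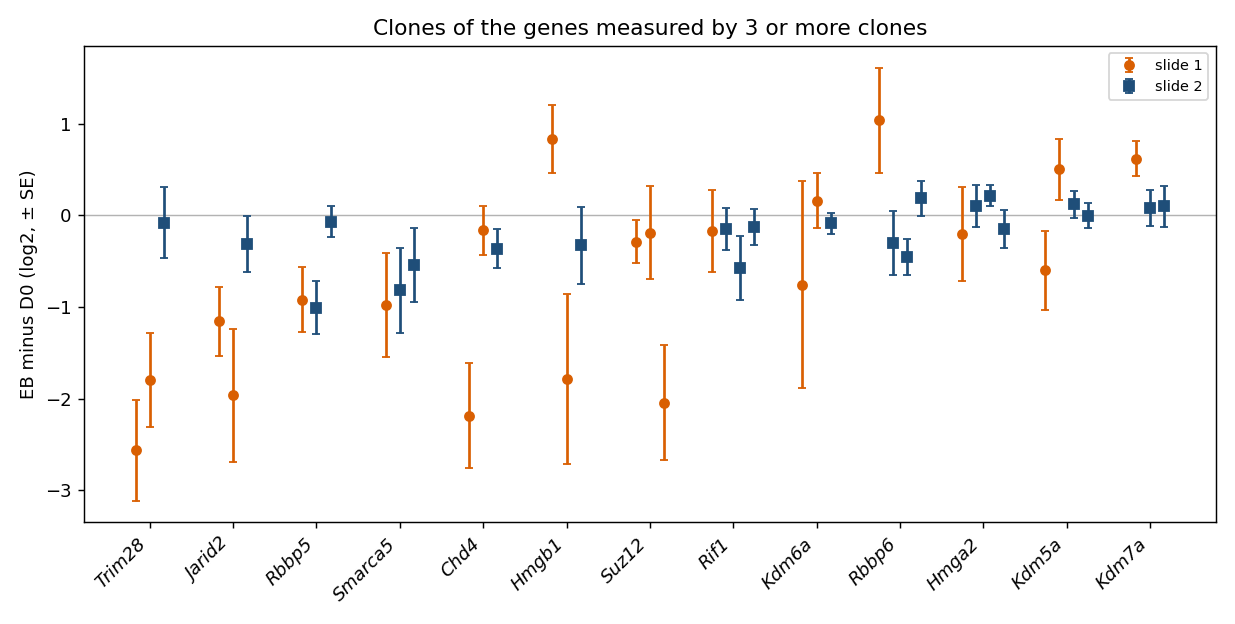
EB minus D0 change (log2, y axis) of each clone of the 13 genes with 3 or more clones (x axis), with bars for ± SE, circles for slide 1 and squares for slide 2. Several slide 1 clones lie far from 0 with wide errors, as for Trim28 at -2.56 and -1.79 beside -0.08 on slide 2.

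Other chromatin genes outside the rule were counted from lists of 102 genes, of which 65 were measured by 121 clones. None passed the threshold for EB minus D0, and 10 were higher and 40 lower at an unadjusted p under 0.05, beside 15.6% and 17.7% of all clones and 11.5% and 22.3% of those with a symbol. All 8 clones of the histone variants H2az1 and H3f3b were among the lower (median -2.32). They were all on slide 1, where 34.7% of the clones with a symbol were lower. The lower also held 11 of 27 clones of histone chaperones (40.7%, median -0.61) and 7 of 24 of methyltransferases (29.2%). Also among them were 5 of 17 of acetyltransferases and readers (29.4%) and 9 of 45 of other remodelling and Polycomb genes (20%). On slide 1 these 4 lists were lower in 44.4%, 46.2%, 50% and 25% of clones, beside 34.7% of those with a symbol. On slide 2 they were lower in 33.3%, 9.09%, 11.1% and 11.8%, beside 10.1%. Without LIF against with LIF, 1 of the 121 was higher and 1 lower at that level.

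RefSeq promoter windows of 300 bases were found for 59 of the 72 genes. Windows with the E2F letters TTCCCGC or TTGGCGC on either strand were held by 12 of the 59 genes (20.3%), beside 7.79% of 27025 genes. The CCAAT letters were in 32 (54.2%), beside 41.1%, and the NRF1 core CGCATGC in 6 (10.2%), beside 4.01%. A gene counted where any of its windows held the letters, and the letters were chosen after the sequences had been seen. The 27025 genes were all those with a window, on the array or not. The share among the array's own genes was not computed, so an excess particular to the members was not tested. For NRF1, the full palindromic motif was searched first and was held by fewer member genes and by a smaller share of all genes, and the shorter core replaced it after that result was known.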

How the data were processed

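The authors deposited 1 table per array of linear ratios for 34560 spots on 2 slides, with each channel divided by its own mean intensity after ImaGene quantification. The ratios are not counts, so the precision rests on the number of arrays. Ratios were converted to log2 (1 value at or below 0 was left out), duplicate spots 160 positions apart within a subgrid were averaged (all 10140 annotated pairs shared an accession), and each slide of each array was centred on its median. Gene names came from the platform annotation: 9866 clones had 1 symbol, 274 several and 5220 none. limma 3.58.1 in R 4.3.3 fitted 9 condition means and a dye term, which is the replicate block here since replicate 1 is Cy3 and replicate 2 is Cy5, with Benjamini-Hochberg adjustment over 15360 clones. Missing values were left out of a clone's fit, not imputed. Tables and plots used Python 3.11.15, pandas 2.3.3 and matplotlib 3.10.9.

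The members and lists were chosen with earlier results of these data known. Named are genes with a clone past the threshold, the 6 clones at each end of EB minus D0 and the 3 at each end of the LIF difference (same side in both dyes), genes with 3 or more clones, Trim28, Rif1, the DNA methyltransferases, the clone of smallest F test p in each group and members 2-fold from the pool. Others are given as examples of their group and were picked after their values were seen. Alternatives changed centring, scaling, normalization, the dye term, array weights, missing values, duplicate spots, direction, the samples fitted and the level, or left out an array. Fits on slide 2 alone (also at equal spread), without the 3 widest slide 1 hybridisations, and on single or concordant spots were chosen after seeing the data. On data simulated for EB minus D0 over 15360 clones, the fit called 37 of 100 clones changed by a log2 of 1, 68 of 100 changed by 2, and 7 unchanged ones. The simulated errors were independent and normal, with the same SD on every array for a clone. The real arrays differed in SD, and those of a dye correlated (mean r 0.33 in Cy3, 0.63 in Cy5). The rates therefore need not hold for the real arrays.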

Additional observations from a re-analysis of the deposited data

How the results depend on the processing

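Counts of members past the threshold were computed under 17 alternatives and with each of 18 arrays left out. Apart from EB minus D0 and the 2-fold rule all reported counts were 0, so that a count staying at 0 says nothing about stability. For EB minus D0 (1 member as reported), 0 passed at equal spread per slide, after quantile normalization, without the dye term (no replicate block), with array weights, with the Cy3 ratios inverted, on clones whose duplicate spots lay within 1, without values whose duplicate spots differed by more than 1, on first spots and on slide 2 alone (0 also at equal spread there). The second spots alone gave 2, and uncentred values gave 18, 17 of them higher, beside 29% of all clones. The median EB minus D0 change was -0.0761 with each array centred over both slides, 0.35 uncentred, 0.0207 at equal spread, 0.0051 after quantile normalization, 0.11 with the Cy3 ratios inverted, -0.0876 on slide 2 alone and 0.0029 there at equal spread. The median LIF difference was -0.10 with each array centred over both slides and -0.12 uncentred. For D4+LIF minus D0 (0 as reported), 1 member passed with each array centred over both slides, 3 among the 80 with all 18 arrays (beside 6.13% of 8740 clones), 1 with clones of a gene averaged, 15 on slide 2 alone and 1 without the 3 widest slide 1 hybridisations. For D3+LIF 1 passed with each array centred over both slides, and for D3-LIF 1 with clones averaged. With the Cy3 ratios inverted, 7 members were 2-fold from the pool in all repeats. The sign of 13 of 227 values of named clones reversed, the cause of which was not tested except where inverting the ratios is itself the change: with the Cy3 ratios inverted EB minus D0 was -0.45 for Rbbp6 clone 1, -0.81 for Kdm4a, -0.53 for Smarcad1 clone 2, -0.28 for Kdm7a clone 1, 0.75 for Trim28 clone 1, 1.53 for Jmjd1c, 1.17 for Chd4 clone 1, 1.50 for Suz12 clone 3, 1.71 for Kdm1a and 1.82 for Jarid2 clone 2, the LIF difference of Dnmt3b was -0.69, and at equal spread that of Hmgn1 was -0.17 (also on slide 2 alone). Leaving out 1 array at a time reversed none. The members passing then ran from 0 to 35 for EB minus D0, 0 to 32 for D1-LIF, 0 to 21 for D2-LIF, 0 to 32 for D3-LIF, 0 to 27 for D4-LIF, 0 to 26 for D1+LIF, 0 to 32 for D2+LIF, 0 to 38 for D3+LIF and 0 to 40 for D4+LIF, the highest each time without the D0 array in Cy5. They ran from 0 to 6 for the LIF difference, 0 to 17 on Day 1, 0 to 1 on Day 2 and 0 to 13 on Day 4, 0 to 1 for the time course without LIF, 0 to 11 with LIF, 0 to 6 for their difference and 0 to 15 for all 9 conditions, and the median EB minus D0 change from -0.23 to -0.0596. An array left alone in its condition was assumed to vary like the others. With 2 arrays a condition, the dye and the biological set cannot be told apart. A change of 2-fold was recovered for only part of the simulated clones, in a simulation without the differences in spread between arrays.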
